A study of Homo sapiens with 6 samples.

Results

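The integrated stress response and amino acid genes were followed in SNU-368, a liver cancer line, after a knockdown of TFAM. The 41 members were chosen by symbol: 40 matched a gene name of the deposited table, and FAM129A was found under its newer symbol NIBAN1, so that 41 of the 60612 gene rows were described. The study compared 3 libraries labelled shTFAM, from cells with a short hairpin RNA against TFAM, with 3 libraries labelled shCtrl, from cells with a control hairpin. TFAM coats mitochondrial DNA (mtDNA) and helps to start transcription from it. All 6 libraries came from the same line with no other agent named, and the labels do not say whether the 3 libraries of a group were separate cultures, infections or clones, so that every p-value rests on a spread between libraries that may be only technical. Of 10 hepatocyte markers, 6 (ALB, APOA1, APOB, TTR, AFP and FGB) had 0 counts in every library and none reached a mean of 0.5 FPKM (fragments per kilobase of gene, scaled to sequencing depth).

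The integrated stress response begins when a kinase phosphorylates the translation factor eIF2, which lowers general protein synthesis and favours translation of ATF4 from its mRNA. ATF4 is a transcription factor that raises genes for amino acid uptake and synthesis, tRNA charging and secreted factors such as GDF15 and FGF21. Mitochondrial damage is known to reach this pathway through the proteins OMA1 and DELE1 and the kinase HRI, encoded by EIF2AK1. Since ATF4 is controlled largely at translation, its mRNA level need not follow its activity.

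ATF4 binds with C/EBP partners to a composite element, and the promoters of the members were searched for its core TGATGNAA and the reverse complement TTNCATCA. RefSeq promoters (GRCh38.p14, 250 bases before to 50 bases after the gene start) were matched for 35 of the 41 members, and 8 of these (22.9%) held a match, against 1270 of 35116 promoters of all genes (3.62%). The members include genes long used as ATF4 targets, so the share describes the choice of genes. The sites below are those that begin before the gene start, with the matched core in capitals, read 5′ to 3′ along the gene's strand. The matches of SLC3A2 (core at 38 to 45) and SLC7A1 (8 to 15) lie after it and are not printed. Positions count from the gene start of the RefSeq promoter, the base before it being -1. This start can differ from the one in the deposited gene positions, which is 57475445 for MARS1 and 40952962 for CHAC1.
ASNS (core at -68 to -61, chr7:97872453-97872492, minus strand): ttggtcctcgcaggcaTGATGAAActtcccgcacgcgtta
ATF3 (core at -191 to -184, chr1:212565200-212565239, plus strand): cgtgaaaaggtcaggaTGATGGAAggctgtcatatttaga
CHAC1 (core at -209 to -202, chr15:40953246-40953285, plus strand): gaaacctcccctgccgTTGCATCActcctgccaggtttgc
FGF21 (core at -54 to -47, chr19:48755454-48755493, plus strand): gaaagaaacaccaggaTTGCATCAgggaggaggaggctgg
MARS1 (core at -4 to 4, chr12:57488048-57488087, plus strand): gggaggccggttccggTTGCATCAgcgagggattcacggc
PPP1R15B (core at -227 to -220, chr1:204412021-204412060, minus strand): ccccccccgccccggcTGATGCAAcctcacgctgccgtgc
CHAC1, FGF21 and MARS1 shared the same core letters, TTGCATCA, and PPP1R15B held their reverse complement. The members with a match did not share a direction: PPP1R15B passed the test as higher, MARS1 as lower, and ASNS, ATF3, CHAC1 and FGF21 did not pass. SLC3A2 and SLC7A1 did not pass either, though every shTFAM library lay above every shCtrl library in SLC3A2. A match shows only that these letters lie in the window.

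Library totals ran from 46263488 to 61058282 counts in shTFAM and from 43286024 to 50910536 in shCtrl, and 3 counts, the floor for detection by counting error alone, equalled 0.0519 to 0.0677 CPM (counts scaled to a common library size). TFAM stood at 63.7, 65.0 and 56.7 CPM in shTFAM 1, 2 and 3, against 82.2, 76.2 and 89.6 CPM in shCtrl 1, 2 and 3 (log2 fold change -0.42, SE 0.107, edgeR adjusted p 0.0377). Without any 1 of the 6 libraries TFAM no longer passed (edgeR adjusted p 0.0676 to 0.0948). On the second principal component (15.3% of the variance) shCtrl 3 lay far from shCtrl 1 and shCtrl 2, and mtDNA rows took 10.1% of its counts, against 13.5% in shCtrl 1 and 14.2% in shCtrl 2. In shTFAM the mtDNA share was 8.65, 10.7 and 7.91%. Summed fibroblast and stellate cell markers ran from 37.3 to 40.8 FPKM in shTFAM and from 24.5 to 37.5 FPKM in shCtrl, most of it COL1A1, with COL1A2 at 0 counts in all libraries. Leukocyte markers, with PTPRC, CD3E and LYZ at 0 counts, summed to 1.15 to 1.35 FPKM in shTFAM and 0.572 to 0.650 FPKM in shCtrl, and endothelial markers, with KDR at 0 counts, to 0.389 to 0.643 and 0.363 to 0.520 FPKM.

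Of the 41 members, all of which passed the filter on low values, 4 rose in shTFAM (VLDLR, CEBPB, PPP1R15B and SLC7A5), 2 fell (NIBAN1 and MARS1) and 35 did not pass. The test was edgeR's quasi-likelihood test at an adjusted p of 0.05, which called 11.3% of the 14708 tested rows higher and 6.59% lower (17.9% in all), so that neither share of the members, 4 and 2 of 41, stood far from that of all rows. The median log2 fold change of the members was -0.17, against -0.02 for all tested rows, with 26 members negative and 15 positive. The groups did not overlap in 8 members with higher values in shTFAM and 4 with lower values, where 22.1% and 20.1% of all rows showed the same. At an unadjusted p under 0.05, 6 members were higher and 6 lower, beside 18.7% and 16.1% of all rows. DESeq2 called 5 higher and 6 lower, with 15.1% and 11.7% of its rows called in those directions. The split depended on the scaling. With library totals, 3 members were higher and 3 lower, beside 9.20% and 8.61% of all rows (1353 and 1266, against 1661 and 969 with TMM), and with counts outside mtDNA 3 and 4, beside 8.15% and 12.0% (1198 and 1771). Without the filter on low values 3 members were higher and 1 lower (4.61% and 2.29% of all rows), with a filter of 5 FPKM 2 and 4 (15.5% and 11.3%), and at an adjusted p of 0.01 2 and 0 (3.80% and 0.945%).

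**Figure D1:**
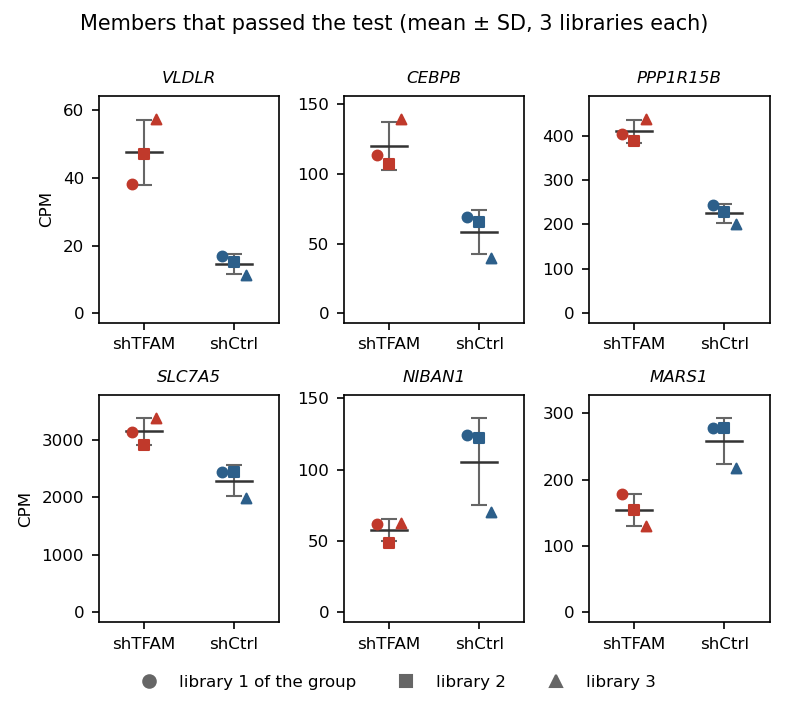
Level in CPM (y axis, each from near 0) of the 6 members that passed the test, by group (x axis, shTFAM left, shCtrl right). Each point is a library, with the marker shape giving its number in the group, and lines and bars give the mean and SD of 3 libraries. The shTFAM points of VLDLR, CEBPB, PPP1R15B and SLC7A5 lie above all shCtrl points, and those of NIBAN1 and MARS1 below them, with shCtrl 3 the lowest shCtrl library in each panel.

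Which library a member was low in followed a pattern that the groups do not describe. shCtrl 3 was the lowest of the 3 shCtrl libraries in 33 of 41 members (80.5%), against 40.1% of all tested rows. It lay more than 1 log2 unit below the mean of shCtrl 1 and shCtrl 2 in 12 members (29.3%), against 5.14% of all rows, with a median difference of -0.60 for the members and -0.01 for all rows. In 18 members (43.9%) the 3 highest libraries were, in any order, shTFAM 1, shCtrl 1 and shCtrl 2. The same held in 4.85% of all rows, and it was looked for after the values were seen. These 18 were JDP2, CEBPG, DDIT3, NUPR1, TRIB3, CHAC1, SESN2, EIF4EBP1, FGF21, GDF15, ASNS, CTH, PSAT1, CBS, SLC1A4, SLC7A1, SLC6A9 and EIF2AK1. The spread over libraries was wide for some members and narrow for others: the highest over the lowest library ranged from 1.09 for EIF2AK1 to 51.1 for FGF21, with a median of 2.20, against 1.74 for all rows. The part that the mtDNA share had in this pattern was not tested.

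**Figure D2:**
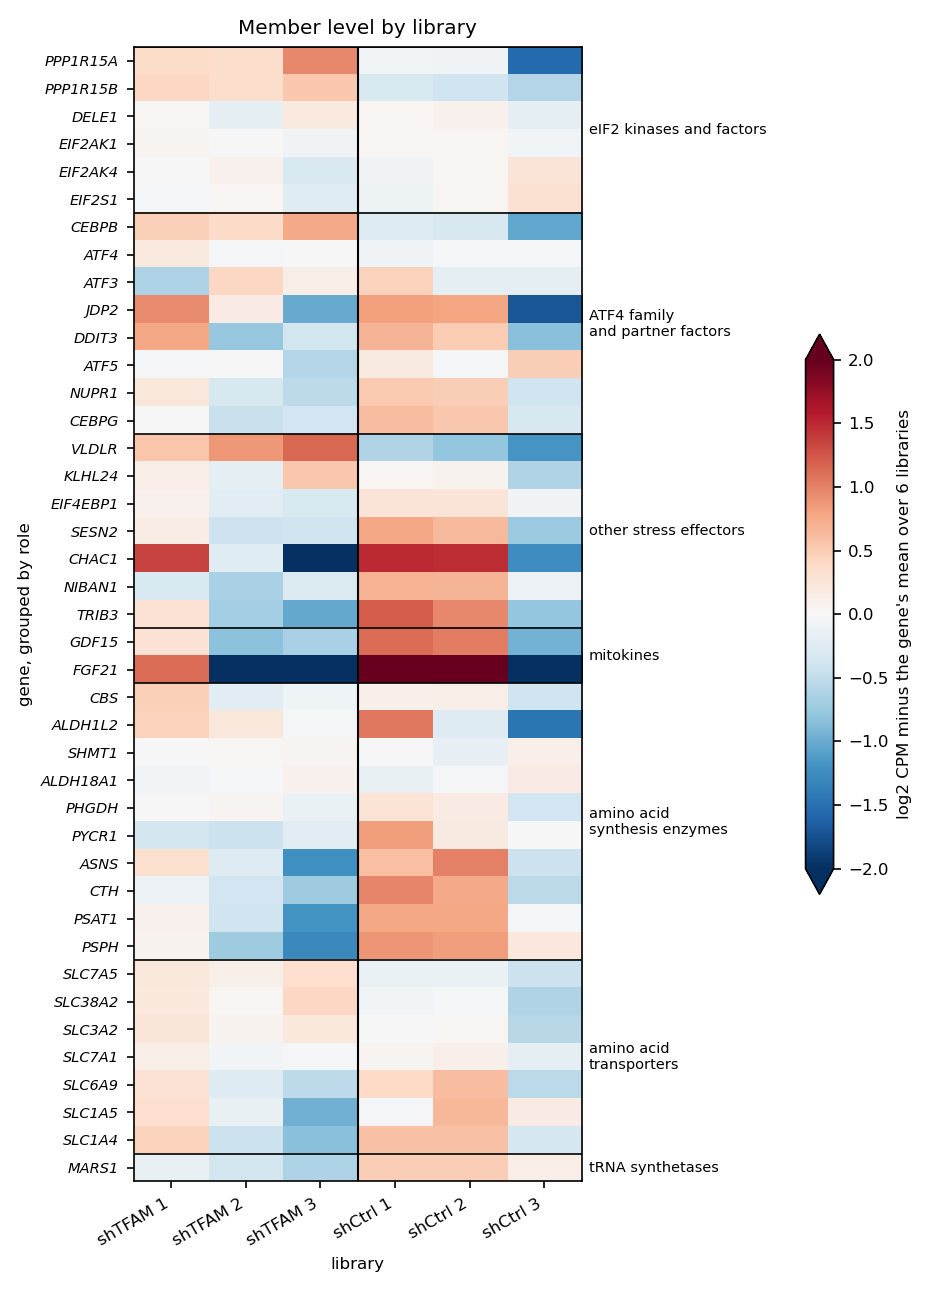
Level of each member (rows, grouped by role and ordered by fold change) in each library (columns), as log2 CPM minus the gene's mean over the 6 libraries, with colours capped at -2 and 2. CHAC1, FGF21, GDF15, TRIB3, JDP2 and DDIT3 are highest in shTFAM 1, shCtrl 1 and shCtrl 2 and low in shCtrl 3, while ATF4 and EIF2AK1 are nearly level in all 6 libraries.

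Without shCtrl 3, 3 members rose (VLDLR, CEBPB and PPP1R15B) and 7 fell, where 9.06% and 4.98% of all rows were called in those directions. To NIBAN1 and MARS1 were added GDF15, SESN2, CEBPG, CTH and PYCR1, and SLC7A5 no longer passed (edgeR adjusted p 0.0612). The members' median was then -0.32, against -0.02 for all rows. With shCtrl 3 and shTFAM 3 both left out, 4 members rose and 5 fell (9.05% and 4.57% of all rows), and CEBPG and CTH were again among the lower ones. Leaving out another library left fewer lower members, or as many: none passed in edgeR without shCtrl 1 (2.48% of all rows), shCtrl 2 (2.07%), shTFAM 2 (2.53%) or shTFAM 3 (2.72%), and 2, MARS1 and PSPH, without shTFAM 1 (3.88%). Of the higher members, 3 passed without shCtrl 1 (6.11% of all rows), shCtrl 2 (5.73%), shTFAM 1 (8.03%) or shTFAM 2 (6.80%), and 2 without shTFAM 3 (6.85%).

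**Figure D3:**
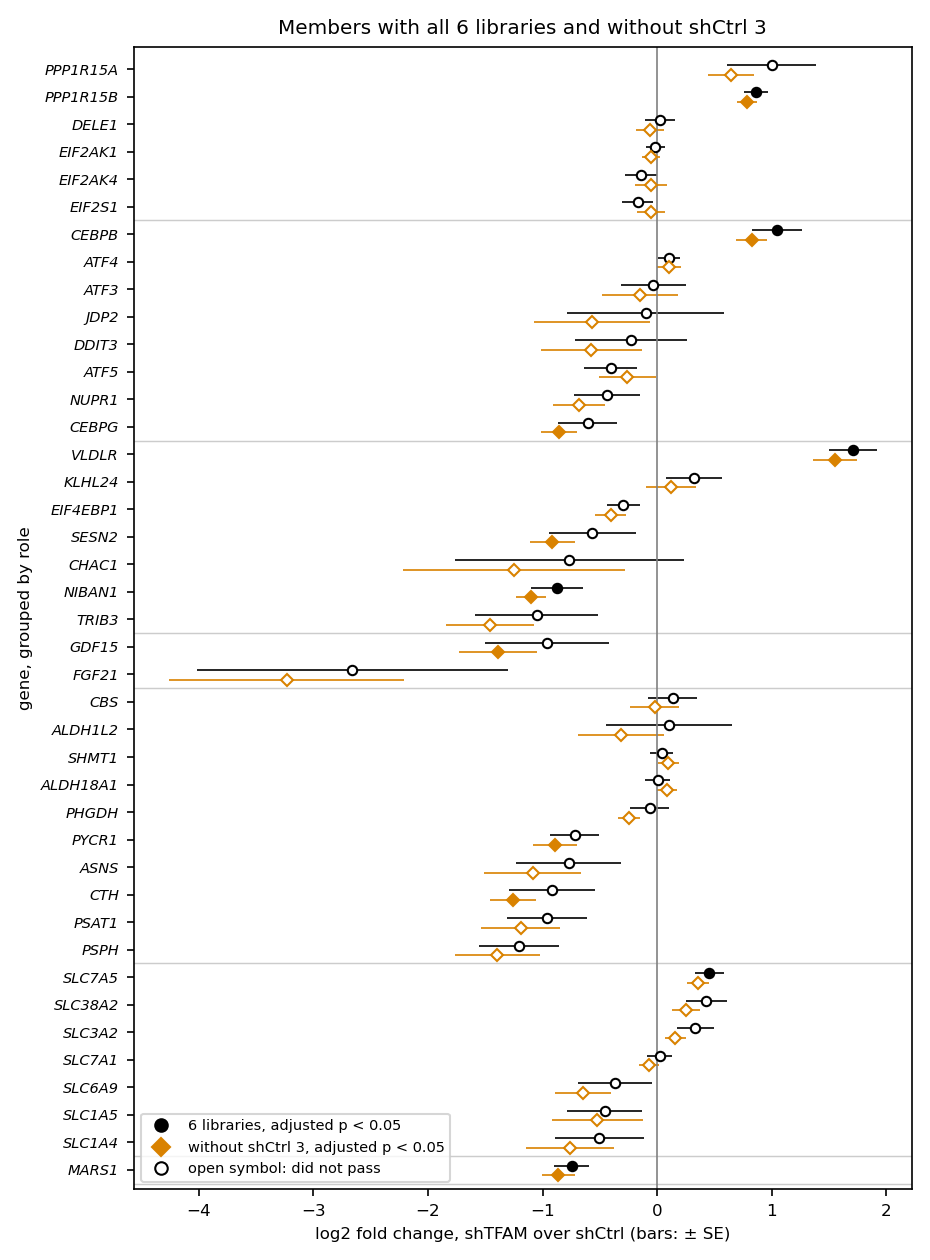
Log2 fold change of shTFAM over shCtrl with its SE (x axis) for each member (y axis, grouped by role), from all 6 libraries (circles) and without shCtrl 3 (diamonds), filled where the adjusted p was under 0.05. For most members of the stress response the estimate lies further below 0 without shCtrl 3, as for GDF15 (-1.39 against -0.96) and SESN2 (-0.91 against -0.56), while VLDLR, CEBPB and PPP1R15B stay above 0 and NIBAN1 and MARS1 below it.

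At the head of the pathway, the member kinases EIF2AK1 and EIF2AK4, DELE1 and the phosphorylated factor had log2 fold changes from -0.17 to 0.03 that did not pass. A subunit of the phosphatase that reverses the signal was higher. The kinases EIF2AK2 and EIF2AK3 are not members and are given below with the list around eIF2. Of 6 members, PPP1R15B rose and 5 did not pass (median log2 fold change 0.01). PPP1R15B (ENSG00000158615, chromosome 1, 204403381 to 204411817, minus strand, hg38) encodes the constitutive subunit that directs protein phosphatase 1 to eIF2. It stood at 403, 388 and 438 CPM in shTFAM 1, 2 and 3, against 244, 229 and 202 CPM in shCtrl 1, 2 and 3. Every shTFAM library lay above every shCtrl library (log2 fold change 0.86, SE 0.105, edgeR adjusted p 0.00394), and the call held without any single library (edgeR adjusted p 0.00871 to 0.0218). PPP1R15A, the stress-induced subunit of the same phosphatase, had 90.9, 90.1 and 137 CPM in shTFAM and 68.0, 66.7 and 24.0 CPM in shCtrl. Its groups did not overlap either, but shCtrl 3 was 0.356 of the mean of the other shCtrl libraries, and it did not pass in edgeR (1.00 on the log2 scale, SE 0.388, edgeR adjusted p 0.116). It passed in DESeq2 (DESeq2 adjusted p 0.0230) and in edgeR with shCtrl 3 and shTFAM 3 left out.

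EIF2AK1, the kinase HRI, was among the steadiest members, at 284 ± 12.0 CPM in shTFAM and 287 ± 10.5 CPM in shCtrl (SD, n = 3 each). The difference was -0.01 on the log2 scale (SE 0.0834, edgeR adjusted p 0.925). DELE1, the mitochondrial protein that activates HRI, stood at 75.4 ± 9.45 and 74.0 ± 7.23 CPM (SD, n = 3 each) in shTFAM and shCtrl, with a log2 fold change of 0.03 (SE 0.129). EIF2AK4, the kinase that senses uncharged tRNA, had a log2 fold change of -0.14 (SE 0.140), and EIF2S1, the eIF2 subunit that is phosphorylated, one of -0.17 (SE 0.135). The signal itself, a phosphorylation, is not measured by RNA.

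ATF4 mRNA was nearly the same in all libraries. ATF4 (ENSG00000128272, chromosome 22, 39519672 to 39522683, plus strand, hg38) stood at 108, 92.8 and 93.3 CPM in shTFAM 1, 2 and 3, against 89.6, 91.7 and 91.2 CPM in shCtrl 1, 2 and 3. The shTFAM libraries all lay above the shCtrl libraries, by little except in shTFAM 1. The difference of 0.11 on the log2 scale (SE 0.0958, edgeR adjusted p 0.467) turned to -0.022 when libraries were scaled to their counts outside mtDNA. In ATF4, shCtrl 3 was at 1.01 times the mean of shCtrl 1 and shCtrl 2, so that the low level of other members in that library had no counterpart in ATF4 mRNA. Rows named as ATF4 pseudogenes, which can share its reads, held up to 4.22 CPM on average.

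Of the 8 members that belong to the ATF4 family or its partners, 1 passed, CEBPB, a C/EBP factor known to pair with ATF4. CEBPB (ENSG00000172216, chromosome 20, 50190830 to 50192668, plus strand, hg38) had 114, 107 and 140 CPM in shTFAM 1, 2 and 3, and 69.1, 65.8 and 39.8 CPM in shCtrl 1, 2 and 3. The groups were apart, with shCtrl 3 lowest and shTFAM 3 highest (edgeR adjusted p 0.0214, log2 fold change 1.05, SE 0.220). The CEBPB call held without shCtrl 3 (log2 fold change 0.83, edgeR adjusted p 0.0179) and ended without shTFAM 3 (edgeR adjusted p 0.0674).

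CEBPG, another C/EBP partner of ATF4, showed the opposite sign. Its values were 36.5, 27.0 and 28.1 CPM in shTFAM and 56.4, 53.5 and 29.3 CPM in shCtrl, so that shCtrl 3 lay among the shTFAM libraries. The log2 fold change of -0.60 (SE 0.257) did not pass (edgeR adjusted p 0.145), and without shCtrl 3 CEBPG fell (log2 fold change -0.86, edgeR adjusted p 0.0242).

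DDIT3, which encodes the stress factor CHOP, had 62.0, 21.4 and 28.1 CPM in shTFAM 1, 2 and 3, against 58.5, 51.6 and 20.4 CPM in shCtrl 1, 2 and 3. Its highest value was in an shTFAM library and its lowest in an shCtrl library. The difference, -0.23 on the log2 scale (SE 0.492, edgeR adjusted p 0.782), came with estimates from -0.83 to 0.05 when single libraries were left out. DDIT3 overlaps MARS1 on the opposite strand, and since no source used here gives the strand setting of the counting, reads of the overlap cannot be told apart. JDP2, a bZIP repressor, had the same 3 highest libraries as DDIT3, with 46.0, 26.7 and 11.9 CPM in shTFAM and 42.0, 41.3 and 7.28 CPM in shCtrl (log2 fold change -0.10, SE 0.687). NUPR1, a stress-induced nuclear protein, stood at 75.8 ± 21.3 CPM in shTFAM and 102 ± 32.5 CPM in shCtrl (SD, n = 3 each; log2 fold change -0.43).

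ATF3, a factor induced by many stresses, did not show the order of DDIT3. It had 24.6, 50.1 and 40.6 CPM in shTFAM 1, 2 and 3, against 51.6, 33.1 and 33.2 CPM in shCtrl 1, 2 and 3. Here shTFAM 1 was the lowest library, and the groups overlapped (log2 fold change -0.03, SE 0.287, edgeR adjusted p 0.953). ATF5, a relative of ATF4 linked to mitochondrial stress, was low, at 6.38, 6.58 and 4.36 CPM in shTFAM and 7.40, 6.35 and 9.18 CPM in shCtrl (log2 fold change -0.41, SE 0.234, edgeR adjusted p 0.261). This row overlaps NUP62 on the opposite strand, which averaged 59.3 CPM, so ATF5 is uncertain where strands were not kept apart. The same holds for EIF2AK1 with AIMP2, SHMT1 with SMCR8, ALDH1L2 with C12orf45, EIF2A with SERP1, EIF2B1 with DDX55 and NPRL3 with MPG.

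Among the effectors, VLDLR rose and NIBAN1 fell, and 5 of 7 did not pass. VLDLR (ENSG00000147852, chromosome 9, 2621787 to 2660056, plus strand, hg38), a lipoprotein receptor, had 38.1, 47.1 and 57.5 CPM in shTFAM 1, 2 and 3, against 17.0, 15.2 and 11.4 CPM in shCtrl 1, 2 and 3. The groups were far apart (log2 fold change 1.71, SE 0.207, edgeR adjusted p 0.00387, 3.27-fold higher), the largest of the 4 rises, and the call held without any single library (edgeR adjusted p 0.00819 to 0.0197). VLDLR is also known as a target of hypoxia-inducible factors.

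NIBAN1 (ENSG00000135842, chromosome 1, 184790724 to 184974508, minus strand, hg38) encodes a stress-induced cytoplasmic protein. It had 61.7, 48.8 and 62.8 CPM in shTFAM and 124, 122 and 70.5 CPM in shCtrl. All shTFAM libraries lay below shCtrl 3, which was itself well below the other shCtrl libraries (edgeR adjusted p 0.0409, log2 fold change -0.87, SE 0.229). The call held without shCtrl 3 (log2 fold change -1.10, edgeR adjusted p 0.00941) and ended without shCtrl 1 (0.104), shCtrl 2 (0.114), shTFAM 1 (0.0788), shTFAM 2 (0.114) or shTFAM 3 (0.0895), all edgeR adjusted p.

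TRIB3, a pseudokinase that restrains ATF4, ranged more than NIBAN1. It stood at 78.4, 40.0 and 31.4 CPM in shTFAM 1, 2 and 3, against 149, 124 and 37.5 CPM in shCtrl 1, 2 and 3. The spread within shCtrl was wider than the difference between the group means, and shCtrl 3 lay below shTFAM 1 and shTFAM 2 (log2 fold change -1.05, SE 0.534, edgeR adjusted p 0.207, and 0.0583 without shCtrl 3). CHAC1, which degrades glutathione, had 9.40, 3.12 and 0.519 CPM in shTFAM and 10.3, 10.3 and 1.56 CPM in shCtrl (log2 fold change -0.77, SE 0.999, with -2.04 without shTFAM 1 and -0.24 without shTFAM 3). This is the order of TRIB3 with shTFAM 1 closer to shCtrl 1 and shCtrl 2.

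SESN2, a leucine-binding inhibitor of mTORC1, had 52.7, 35.7 and 35.9 CPM in shTFAM 1, 2 and 3, against 81.1, 74.2 and 28.5 CPM in shCtrl 1, 2 and 3. shCtrl 3 was the lowest of all libraries, and the difference did not pass (log2 fold change -0.56, SE 0.376, edgeR adjusted p 0.328). Without shCtrl 3, SESN2 fell (log2 fold change -0.91, edgeR adjusted p 0.0358). The translation repressor EIF4EBP1 (log2 fold change -0.30, SE 0.145) and the ubiquitin ligase adaptor KLHL24 (0.32, SE 0.245) had smaller differences that did not pass.

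**Figure D4:**
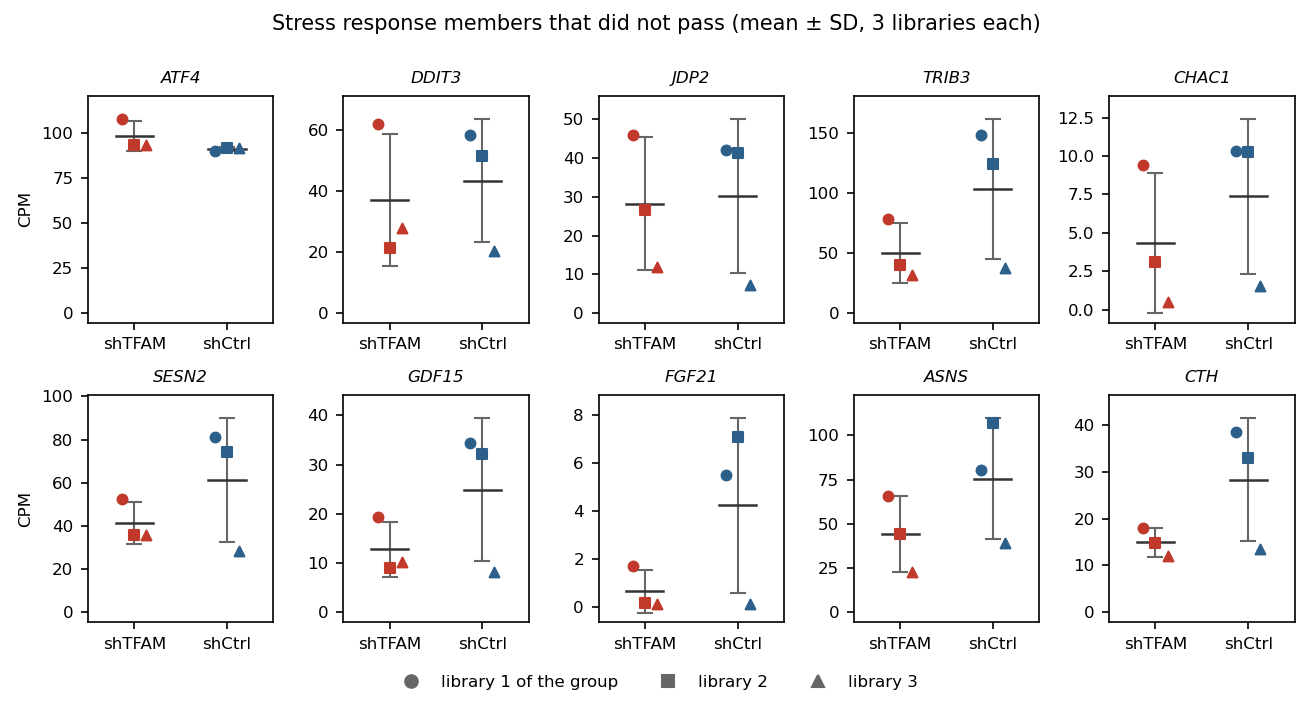
Level in CPM (y axes, each from near 0) of 10 members that did not pass the test, by group (x axis, shTFAM left, shCtrl right), of which JDP2, CHAC1 and CTH were added after their values were seen, while ATF3 and ATF5, which have another library order, are not drawn. Each point is a library, with the marker shape giving its number in the group, and lines and bars give the mean and SD of 3 libraries. In the 9 panels drawn besides ATF4, shCtrl 3 lies well below shCtrl 1 and shCtrl 2, and shTFAM 1 is the highest shTFAM library.

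The secreted factors GDF15 and FGF21, called mitokines because mitochondrial stress raises them in muscle and other tissues, were not called higher in shTFAM. GDF15 (ENSG00000130513, chromosome 19, 18374731 to 18389176, plus strand, hg38) had 19.3, 8.95 and 10.1 CPM in shTFAM 1, 2 and 3, against 34.4, 32.1 and 8.21 CPM in shCtrl 1, 2 and 3. All shTFAM libraries lay below shCtrl 1 and shCtrl 2 and above shCtrl 3. The difference did not pass (log2 fold change -0.96, SE 0.540, edgeR adjusted p 0.250), and without shCtrl 3 GDF15 fell (log2 fold change -1.39, SE 0.340, edgeR adjusted p 0.0491). FGF21 had 1.71, 0.179 and 0.139 CPM in shTFAM and 5.50, 7.08 and 0.142 CPM in shCtrl, from 79, 8 and 8 counts and 244, 363 and 7 counts. Its level in shCtrl 3 was 0.0226 of the mean of shCtrl 1 and shCtrl 2, which makes it the most uneven member. It passed the filter on low values through shCtrl 1 and shCtrl 2 (log2 fold change -2.66, SE 1.36, edgeR adjusted p 0.210, and 0.0897 without shCtrl 3). Over single left-out libraries its log2 fold change ran from -4.74, without shTFAM 1, to -2.07, without shCtrl 2.

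Of the 10 enzymes that make amino acids, none passed in edgeR, 4 were lower at an unadjusted p under 0.05, and DESeq2 called those 4 (PSAT1, PSPH, CTH and PYCR1) lower. Beside these, 16.1% of all rows were lower at that unadjusted p, and 11.7% of DESeq2's rows were called lower. The group's median log2 fold change was -0.39. In the serine pathway, PHGDH, the first enzyme, stood at 254 ± 17.3 CPM in shTFAM and 265 ± 60.1 CPM in shCtrl (SD, n = 3 each), a log2 fold change of -0.06 (SE 0.171). The steps after it were lower in estimate. PSAT1 had 169, 121 and 69.5 CPM in shTFAM and 272, 273 and 155 CPM in shCtrl (log2 fold change -0.96, SE 0.346, edgeR adjusted p 0.0967), and PSPH, the last enzyme, 38.0, 22.1 and 14.9 CPM in shTFAM and 66.5, 64.5 and 41.9 CPM in shCtrl (-1.21, SE 0.348, edgeR adjusted p 0.0535). The PSPH groups did not overlap, and those of PSAT1 did, shTFAM 1 lying above shCtrl 3. PSPH passed in edgeR without shTFAM 1 (edgeR adjusted p 0.0207), with counts outside mtDNA (0.0440) and with a filter of 5 FPKM (0.0452), and in limma on log2(FPKM + 1) (limma adjusted p 0.0443). Left-out libraries other than shTFAM 1 gave edgeR adjusted p from 0.0593 to 0.141, and its pseudogene row PSPHP1, which may share reads, averaged 4.54 CPM. The difference between PHGDH and the later enzymes was not itself tested.

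ASNS, asparagine synthetase (ENSG00000070669, chromosome 7, 97851677 to 97872542, minus strand, hg38), a standard ATF4 target whose promoter site is printed above, had 66.0, 44.3 and 22.6 CPM in shTFAM 1, 2 and 3, against 80.3, 107 and 39.2 CPM in shCtrl 1, 2 and 3. The groups overlapped through shCtrl 3 (log2 fold change -0.77, SE 0.458, edgeR adjusted p 0.276, from 0.139 to 0.589 when single libraries were left out). CTH, which makes cysteine, had 18.0, 14.9 and 11.9 CPM in shTFAM and 38.5, 32.8 and 13.4 CPM in shCtrl. It fell without shCtrl 3 (log2 fold change -1.26, edgeR adjusted p 0.0174) but did not pass with all libraries (-0.92, SE 0.373, edgeR adjusted p 0.130).

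PYCR1, the last step of mitochondrial proline synthesis, had 49.9, 47.7 and 54.5 CPM in shTFAM and 114, 72.9 and 63.6 CPM in shCtrl, with no overlap (log2 fold change -0.72, SE 0.216, edgeR adjusted p 0.0596). PYCR1 passed when shCtrl 3 was left out (edgeR adjusted p 0.0361), with library totals (0.0445), with counts outside mtDNA (0.0372) and with a filter of 5 FPKM (0.0491). Here shCtrl 1 stood apart, and shCtrl 3 lay close to shCtrl 2. ALDH18A1, the first step of the same route, did not differ beyond its spread (0.01, SE 0.108), nor did SHMT1, the cytosolic serine hydroxymethyltransferase (0.04, SE 0.0989). CBS, the partner of CTH in transsulfuration, had a log2 fold change of 0.13 (SE 0.217) and can share reads with the near-identical row CBSL, at 30.3 CPM on average. ALDH1L2, a mitochondrial folate enzyme, had 90.6, 77.0 and 64.3 CPM in shTFAM and 137, 54.9 and 23.9 CPM in shCtrl, with every shTFAM library between the extremes of shCtrl (log2 fold change 0.10, SE 0.546). Without shCtrl 1 its log2 fold change was 0.96 (edgeR adjusted p 0.133), without shCtrl 3 it was -0.32, and with counts outside mtDNA -0.034.

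Of the 7 amino acid transporters, SLC7A5 rose and 6 did not pass. SLC7A5 (ENSG00000103257, chromosome 16, 87830023 to 87869507, minus strand, hg38), the large neutral amino acid carrier, was per length the most abundant of all members, at 539 ± 30.2 FPKM in shTFAM and 415 ± 46.5 FPKM in shCtrl (SD, n = 3 each). In CPM it had 3140, 2915 and 3373 in shTFAM 1, 2 and 3, against 2444, 2440 and 1981 in shCtrl 1, 2 and 3. The groups did not overlap (edgeR adjusted p 0.0443, log2 fold change 0.46, SE 0.124). SLC7A5 no longer passed without shCtrl 1 (edgeR adjusted p 0.0852), shCtrl 2 (0.0905), shCtrl 3 (0.0612), shTFAM 1 (0.108), shTFAM 2 (0.0710) or shTFAM 3 (0.111), and under scaling to library totals (0.0620) or to counts outside mtDNA (0.0990).

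SLC3A2, the chain that pairs with SLC7A5 at the membrane, had 669, 594 and 651 CPM in shTFAM and 559, 577 and 384 CPM in shCtrl. SLC38A2, which carries small neutral amino acids, had 1076, 949 and 1231 CPM in shTFAM and 895, 912 and 612 CPM in shCtrl. Both had groups that did not overlap, with shCtrl 3 lowest, and neither passed (log2 fold changes 0.33, SE 0.163, and 0.43, SE 0.178, edgeR adjusted p 0.194 and 0.137).

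The other transporters had log2 fold changes from -0.50 to 0.02 and did not pass. SLC1A4, for alanine, serine and cysteine, had 12.3, 6.65 and 5.00 CPM in shTFAM and 13.4, 13.5 and 7.04 CPM in shCtrl (log2 fold change -0.50, SE 0.391). SLC6A9, a glycine transporter, had 44.4, 30.6 and 25.5 CPM in shTFAM and 48.2, 56.0 and 25.2 CPM in shCtrl (-0.37, SE 0.321). In both, shTFAM 1 sat near shCtrl 1 and shCtrl 3 near shTFAM 3. SLC1A5, for glutamine, ranged from 106 to 262 CPM in shTFAM and from 202 to 327 CPM in shCtrl (-0.46, SE 0.328), and SLC7A1, for arginine and lysine, stood at 179 ± 11.7 CPM in shTFAM and 176 ± 18.9 CPM in shCtrl (SD, n = 3 each; log2 fold change 0.02).

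MARS1 (ENSG00000166986, chromosome 12, 57475445 to 57517569, plus strand, hg38), the cytosolic methionyl-tRNA synthetase, fell. It had 178, 154 and 130 CPM in shTFAM 1, 2 and 3, against 278, 278 and 218 CPM in shCtrl 1, 2 and 3. All shTFAM libraries lay below all shCtrl libraries (edgeR adjusted p 0.0197, log2 fold change -0.75, SE 0.152). The call held without shCtrl 3 (-0.86, edgeR adjusted p 0.0195) and shTFAM 1, and ended without shCtrl 1 (edgeR adjusted p 0.0626), shCtrl 2 (0.0645), shTFAM 2 (0.0605) or shTFAM 3 (0.0520).

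The other genes of the pathway were lower more often than higher. Of 85 listed, 81 were tested, and 3 rose, 14 fell and 64 did not pass, at a median of -0.36 on the log2 scale and 69 negative values. The lower share, 14 of 81, lay above the 6.59% of all rows, and the higher one below their 11.3%. The lists were chosen with earlier results of these data known, so these shares may describe that choice. The split moved with single libraries, from 1 lower gene without shCtrl 2 (2.07% of all rows) to 21 without shCtrl 3 (4.98%). The count of 14 fell to 4 without shCtrl 1 (2.48% of all rows) or shTFAM 2 (2.53%) and to 5 without shTFAM 3 (2.72%). Lower calls over all rows were fewer in these fits as well, against 6.59% with all libraries.

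**Figure D5:**
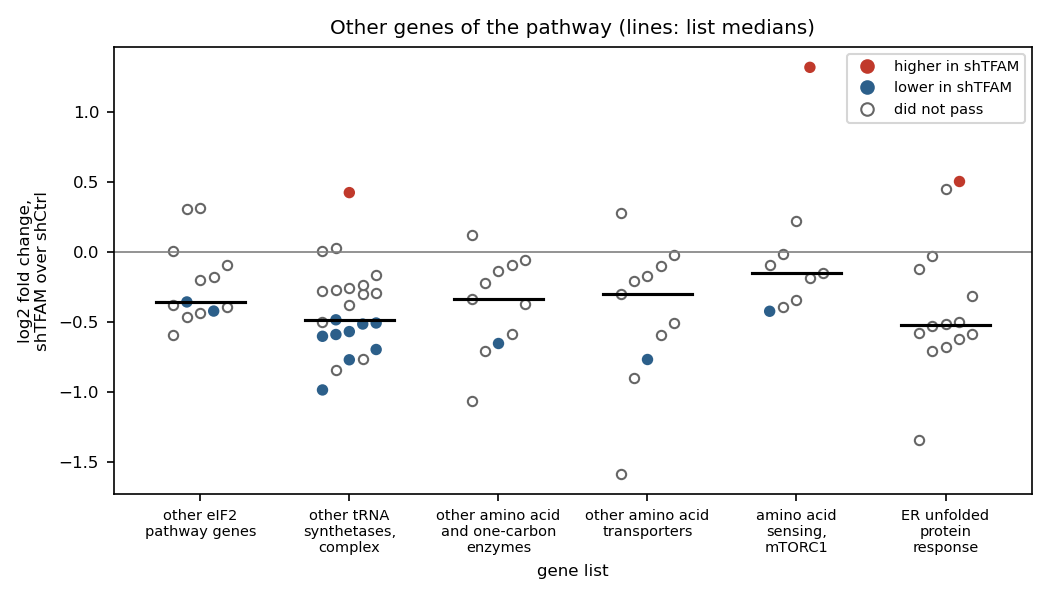
Log2 fold change of shTFAM over shCtrl (y axis) for each tested gene of 6 lists of other pathway genes (x axis), filled where the adjusted p was under 0.05, with a line at each list's median. The tRNA synthetase list holds 9 of the 14 lower genes, and all 6 medians lie below 0.

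Cytosolic tRNA synthetases and the proteins around them, which charge tRNAs with amino acids, made up most of these. Of 23 tested besides MARS1, 9 fell and 1 rose, where 6.59% and 11.3% of all rows were called in those directions. The median log2 fold change was -0.48. XPOT, the tRNA export receptor, had 288, 262 and 229 CPM in shTFAM 1, 2 and 3, against 386, 411 and 386 CPM in shCtrl 1, 2 and 3 (edgeR adjusted p 0.0125, log2 fold change -0.60, SE 0.107). EEF1E1, a scaffold of the multi-synthetase complex, had 29.4, 28.6 and 20.7 CPM in shTFAM and 44.4, 44.3 and 45.5 CPM in shCtrl (-0.77, edgeR adjusted p 0.0161). FARSB, a phenylalanyl-tRNA synthetase subunit, had 75.1, 76.8 and 57.8 CPM in shTFAM and 107, 110 and 123 CPM in shCtrl (-0.70, edgeR adjusted p 0.0164). In these 3 genes shCtrl 3 was at 0.970 to 1.14 times the mean of the other shCtrl libraries. The calls of XPOT and FARSB ended without shCtrl 2 (edgeR adjusted p 0.0509 and 0.0508), and that of EEF1E1 without shCtrl 1 (0.0514) or shCtrl 2 (0.0526).

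A second set of synthetases had the same 3 highest libraries as DDIT3 and TRIB3, in any order, and was picked out after its values were seen. AARS1, GARS1, CARS1, SARS1 and WARS1 had shTFAM 1, shCtrl 1 and shCtrl 2 as their 3 highest libraries, as had 4.85% of all rows. AARS1, for alanine, had 280, 216 and 180 CPM in shTFAM and 467, 486 and 263 CPM in shCtrl (log2 fold change -0.84, SE 0.261, edgeR adjusted p 0.0646, and 0.0212 without shCtrl 3). None of these 5 passed with all libraries in edgeR, where the unadjusted p of AARS1 was 0.0138 and that of WARS1 0.0169, and DESeq2 called these 2 lower.

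In the list around eIF2, 2 of 13 fell and none rose in edgeR (1 higher and 7 lower at an unadjusted p under 0.05, none higher and 5 lower in DESeq2). Of all rows, edgeR called 6.59% lower and 11.3% higher. At that unadjusted p 18.7% were higher and 16.1% lower, and in DESeq2 15.1% and 11.7%. EIF2B1, a subunit of the exchange factor that recharges eIF2, had 125, 124 and 119 CPM in shTFAM and 159, 159 and 176 CPM in shCtrl (log2 fold change -0.42, edgeR adjusted p 0.0205), a call kept without shCtrl 3 and ended without any other single library (0.0509 to 0.0604). EIF2A, an alternative initiation factor, had 111, 123 and 106 CPM in shTFAM and 142, 143 and 150 CPM in shCtrl (-0.36, edgeR adjusted p 0.0398), and its call ended without any single library (0.0531 to 0.108). EIF2AK2, another eIF2 kinase, had 100, 94.3 and 79.8 CPM in shTFAM and 116, 111 and 130 CPM in shCtrl. It did not pass in edgeR (log2 fold change -0.38, edgeR adjusted p 0.0674), and DESeq2 called it lower. The kinase gene EIF2AK3 did not pass in either, with 45.1, 40.3 and 37.2 CPM in shTFAM and 34.9, 35.7 and 28.1 CPM in shCtrl (0.31, edgeR adjusted p 0.147). OMA1, the protease upstream of DELE1, had 8.63, 7.66 and 5.54 CPM in shTFAM and 9.00, 13.2 and 10.6 CPM in shCtrl and did not pass (log2 fold change -0.59, edgeR adjusted p 0.117).

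Other amino acid and one-carbon enzymes gave 1 lower gene of 11, GOT1, the cytosolic aspartate aminotransferase, with 99.5, 95.6 and 88.0 CPM in shTFAM and 156, 164 and 124 CPM in shCtrl (log2 fold change -0.65, edgeR adjusted p 0.0170). GOT1 no longer passed without shCtrl 1 (0.0567), shCtrl 2 (0.0604), shTFAM 2 (0.0522) or shTFAM 3 (0.0558). MTHFD2, a mitochondrial folate enzyme and ATF4 target, had 200, 161 and 154 CPM in shTFAM and 285, 302 and 186 CPM in shCtrl, and passed only without shCtrl 3 among the left-out single libraries (log2 fold change -0.78, edgeR adjusted p 0.0203, against -0.59 and 0.0833 with all). Of 11 other transporters tested, SLC1A3, a glutamate carrier, fell, with 14.8, 20.7 and 21.7 CPM in shTFAM and 32.8, 31.7 and 32.4 CPM in shCtrl (-0.76, edgeR adjusted p 0.0216). It did not pass without shCtrl 1 (0.0609), shCtrl 2 (0.0621) or shTFAM 2 (0.0516).

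Among 9 tested genes of amino acid sensing upstream of mTORC1, RRAGA rose and NPRL3 fell. RRAGA, a GTPase that recruits mTORC1 to lysosomes, had 135, 147 and 191 CPM in shTFAM 1, 2 and 3, against 63.1, 62.5 and 64.1 CPM in shCtrl 1, 2 and 3. The shCtrl libraries were almost equal and all shTFAM libraries far above them (log2 fold change 1.32, SE 0.141, edgeR adjusted p 0.00304, and 0.00351 to 0.0180 without single libraries). NPRL3, part of a complex that inhibits this GTPase, had 60.3, 50.9 and 50.3 CPM in shTFAM and 76.7, 66.3 and 73.6 CPM in shCtrl (-0.42, edgeR adjusted p 0.0446), a call that held only without shTFAM 1 among the single libraries left out (0.0394, otherwise 0.0758 to 0.122).

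The endoplasmic reticulum branch, which shares DDIT3 and TRIB3 with this pathway, moved with the same libraries. Of 14 genes, EDEM1 rose, none fell in edgeR (4 lower at an unadjusted p under 0.05, 3 in DESeq2) and 13 did not pass, with a median of -0.52. Of all rows, 16.1% were lower at that unadjusted p, and of DESeq2's rows 11.7% were called lower. EDEM1, which hands misfolded proteins to degradation, had 142, 132 and 134 CPM in shTFAM and 110, 96.1 and 79.1 CPM in shCtrl (log2 fold change 0.51, edgeR adjusted p 0.0394), and its call held only without shCtrl 1 among the single libraries left out (0.0412, otherwise 0.0535 to 0.104). HSPA5, the main chaperone of this compartment, named after its values were seen, had 1721, 863 and 684 CPM in shTFAM 1, 2 and 3, against 3591, 3752 and 950 CPM in shCtrl 1, 2 and 3. In 7 of the 14 genes, HSPA5 and HERPUD1 among them, shTFAM 1, shCtrl 1 and shCtrl 2 were the highest libraries, as in 4.85% of all rows. Without shCtrl 3, 7 of the 14 fell and none rose, beside 4.98% and 9.06% of all rows. In such bulk libraries fewer cells that express a gene and less of its RNA per cell cannot be told apart.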

How the data were processed

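Poly(A) RNA was sequenced as strand-marked paired reads, per the labels' protocols. The authors deposited 1 table with whole-number counts and FPKM per gene and library, per the file headers. Per the submitters' processing notes StringTie 1.3.4d, HISAT2 2.0.4, cutadapt 1.9 and Bowtie 0.12.2 were used, with the builds mm8 and hg38. No source used here gives their roles, the annotation or the strand setting, so overlapping genes and near-identical copies can share reads. Row coordinates were human: 72.7% of the 58394 rows found in GENCODE 29 had its GRCh38 coordinates, and so had 11 of the 41 members. Gene positions are printed as the table gives them.

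Samples were grouped by their treatment label, and table columns by sample title. The 14708 rows that averaged 0.5 FPKM or more went into edgeR's quasi-likelihood test on counts as deposited (TMM factors 0.951 to 1.04, two-sided, Benjamini-Hochberg over all tested rows). SE is the log2 fold change over the root of F. CPM use TMM-adjusted library sizes. The fit was tested on simulated counts with known changes. Replicates differed beyond sampling noise (lowest chi-square per degree of freedom 42.2). The members and lists were chosen with earlier results of these data known. Values per library are given for called members, for ATF4, ATF3, ATF5, DDIT3, TRIB3, ASNS, GDF15, FGF21, SESN2 and TFAM, and for up to 3 called genes of each other list. Other genes were named after their values were seen, and 1 called gene of the other lists is not reported here by name. DESeq2 1.42.0, limma 3.58.1, edgeR 4.0.16 and R 4.3.3 were used. The alternatives tried were DESeq2, other scalings and filters, limma on log2 FPKM, an adjusted p of 0.01 and leaving out libraries.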

Additional observations from a re-analysis of the deposited data

How the results depend on the processing

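No paired analysis was possible because the titles give the groups no shared replicate numbers. With all libraries, 4 members were higher and 2 lower in shTFAM. DESeq2 gave 6 lower members, 26 lower other pathway genes and 1677 lower rows in all. Scaling to counts outside mtDNA gave 4 lower members, 1 higher and 24 lower other genes and 1771 lower rows, and moved the median of all rows from -0.02 to -0.15. Without the FPKM filter there were 1 lower member and 9 lower other genes, beside 2.29% of all rows. Rows of at least 5 FPKM gave 2 higher and 4 lower members and 1020 higher rows, with VLDLR no longer tested. An adjusted p of 0.01 left 2 higher and 0 lower members, 1 higher and 0 lower other genes, and 559 higher and 139 lower rows. Leaving out shCtrl 3 and shTFAM 3 gave 5 lower members. Over single left-out libraries, higher members ranged from 2 to 3, lower members from 0 to 7, higher other genes from 1 to 2, lower other genes from 1 to 21, higher rows from 843 to 1332 and lower rows from 305 to 733. On the log2 scale, ATF4 reversed to -0.022 with counts outside mtDNA. Over single left-out libraries, ATF3 ranged from -0.27 to 0.20 and was positive without shCtrl 1 or shTFAM 1, and DDIT3 ranged from -0.83 to 0.049 and was positive without shCtrl 1 or shTFAM 2. The cause was not tested. FGF21 rests on 8, 8 and 7 counts in shTFAM 2, shTFAM 3 and shCtrl 3, which limits its fold change. DESeq2's size factors, library totals and limma on log2(FPKM + 1) or log2(FPKM + 0.1) kept the count of members within 1.5 times.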
